A study of Homo sapiens with 2 samples.

Results

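A group of 10 Notch pathway genes was followed by name in the RNA-seq of AS cells: the receptor genes NOTCH1, NOTCH2 and NOTCH3, the ligand genes JAG1, JAG2 and DLL1, and the target genes HES1, HEY1, HEY2 and NRARP. They were 10 genes in a table of 62573 rows, found by splitting each row's gene names at commas and keeping, where a symbol had several rows, the row of highest summed FPKM. The genes were selected on their known roles and with their FPKM in these same libraries in view. The comparison was of 2 libraries. AS STRAP KO came from SK-N-AS, a human neuroblastoma line whose MYCN gene is not amplified, after CRISPR-Cas9 had been directed at STRAP, and was grown from 1 sorted cell. AS WT was the unedited SK-N-AS culture, which is not a clone, so the edit and clonal differences cannot be told apart. Both were left untreated and grown in the same serum-containing medium.

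Notch proteins are receptors on the cell surface whose ligands, of the Jagged and Delta families, sit on the surface of neighbouring cells. Ligand binding leads ADAM proteases and then the γ-secretase complex to cut the receptor, and the freed intracellular part moves to the nucleus, where it joins the DNA-binding protein RBPJ and a Mastermind protein to switch on genes such as those of the HES and HEY repressors. In the developing nervous system this holds cells back from becoming neurons, and in neuroblastoma lines Notch activity has been linked to a mesenchymal rather than an adrenergic state. STRAP itself has been tied to NOTCH signaling in colorectal cancer, which makes the pathway of interest in a STRAP knockout.

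RBPJ binds DNA at sites with the core TGGGAA and at close variants of it. The stretch before the start site of HES1 is the textbook example of a pair of RBPJ sites that face each other, and the second site of that pair departs from these letters, so a search for them does not mark it. Promoter windows of 300 bases (250 before and 50 after the start, RefSeq, GRCh38.p14) were given for 8 of the 10 genes, all but DLL1 and HEY1. The letters TGGGAA, searched on both strands, were found in the windows of 2 of these 8, HES1 and HEY2, with 2 matches each. Of all 35116 windows, 24.0% held at least 1 match and 3.80% at least 2. The windows of NOTCH1, NOTCH2, NOTCH3, JAG1, JAG2 and NRARP held none, which says only that these letters are not in them. The sequences shown are those of HES1, of HEY2 and of NRARP as a target without a match, together with HES4, a related repressor gene expressed in both libraries. Of other related genes, the windows of HES6 and HES7, also expressed in both libraries, held no match. Those of HES5 and HEYL held 2 each. Capitals mark TGGGAA, or TTCCCA where the match lies on the other strand.
HES1: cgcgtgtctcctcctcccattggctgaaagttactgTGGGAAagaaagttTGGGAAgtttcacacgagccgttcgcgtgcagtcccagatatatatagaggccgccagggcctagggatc
HEY2: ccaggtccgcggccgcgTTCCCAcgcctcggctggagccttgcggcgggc
NRARP: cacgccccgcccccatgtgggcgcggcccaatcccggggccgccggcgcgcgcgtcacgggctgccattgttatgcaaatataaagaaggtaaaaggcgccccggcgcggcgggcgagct
HES4: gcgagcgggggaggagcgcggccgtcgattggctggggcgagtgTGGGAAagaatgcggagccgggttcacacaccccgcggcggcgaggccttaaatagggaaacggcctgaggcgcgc

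The HES1 stretch is chr3:194136028-194136147 on the plus strand, bases -120 to -1 from the start, and its matches begin at -84 and -70, both on the plus strand, so together they are not that facing pair. The HEY2 stretch is chr6:125749402-125749451 on the plus strand, bases -230 to -181, with a match on the minus strand at -213, where the core is preceded by CG. A CG before the core occurred in 0.826% of all windows. The NRARP and HES4 stretches, bases -120 to -1 on the minus strand, are chr9:137302272-137302391 and chr1:1000098-1000217, and the HES4 match begins at -76.

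Levels are FPKM, read numbers scaled by the authors to transcript length and library size, with 1 column for each genotype. In such bulk RNA, fewer cells of a type and less RNA per cell cannot be told apart. With 1 library per genotype no difference had a replicate check, no test was made, and higher and lower refer to these libraries only. Whole-read steps among low values gave 26.7 and 26.3 reads per kilobase at 1 FPKM in AS STRAP KO and AS WT, so the depths on the deposited scale were close. From this depth and the length of each gene's main transcript, reads were estimated, and the 95% intervals given below (exact binomial) cover counting error only. STRAP, the targeted gene, had 179 FPKM in AS STRAP KO and 244 FPKM in AS WT (log2 ratio -0.45), a level of whole transcripts that does not measure the edit or the protein. The neuroblastoma label was checked with markers. HAND2, a transcription factor of the sympathetic lineage, had 228 FPKM in AS STRAP KO and 227 FPKM in AS WT, while TH and DDC, enzymes of catecholamine synthesis, were listed at 0 in both. Of 14 adrenergic markers 7 reached 1 FPKM in a library, of 14 mesenchymal markers 12 did, and of 7 endothelial markers none did. Of 7 epithelial markers 2 did, the keratins KRT8 at 554 FPKM in AS STRAP KO and 518 FPKM in AS WT and KRT18 at 268 FPKM in AS STRAP KO and 283 FPKM in AS WT, while CDH1 was listed at 0 in both. Of 7 blood markers 2 did, CD14 at 1.18 FPKM in AS STRAP KO and 1.16 FPKM in AS WT and the row of CD68, which it shares with EIF4A1 and other genes.

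The 3 receptor transcripts, JAG1 and the row that JAG2 shares with NUDT14 were higher in AS STRAP KO, NOTCH2 and the JAG2 row by little. The target NRARP was higher as well, while HES1 and HEY1, the most abundant targets, were lower. The filter, 1 FPKM or more in either library, was passed by 8 genes, and each of them reached it in both. Of these, 6 had a higher and 2 a lower value in AS STRAP KO. Among the 8, 3 were at least 2-fold higher, NOTCH1, NOTCH3 and JAG1, and 1 was at least 2-fold lower, HEY1. Over all 13527 rows that passed the same filter, 8.31% were higher by 2-fold or more and 10.6% were lower by as much. After subtracting the median of neighbouring genes, or of genes of like transcript length, 1 of the 8 was still higher by 2-fold or more, NOTCH3 in the first case and NOTCH1 in the second. The median log2 ratio of the 8 was 0.42, against 0.0023 over all rows. The genes were put forward with this comparison known, so these counts describe the group and are not evidence about it.

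**Figure D1:**
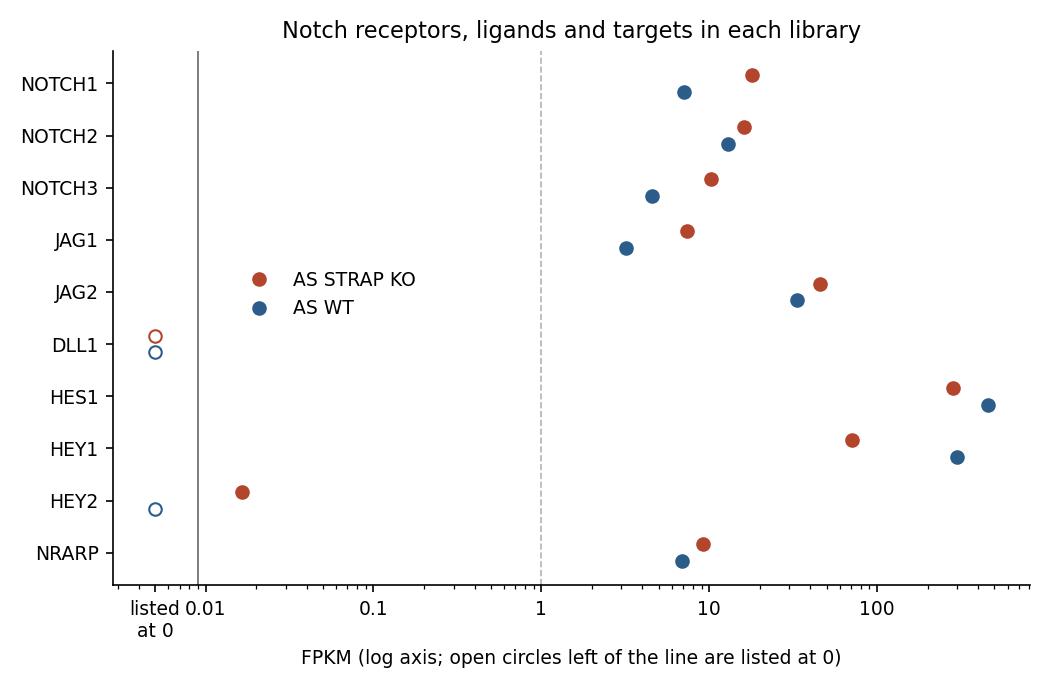
FPKM (log axis) of the 10 genes, with AS STRAP KO above AS WT for each gene, 1 point per library, open circles for values listed at 0 and a dashed line at 1 FPKM. HES1 and HEY1 lie furthest right and have the AS WT point to the right of the AS STRAP KO point, while NOTCH1, NOTCH3 and JAG1 show the opposite order.

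Among the receptors as deposited, NOTCH1 differed most, while with the median of its neighbouring genes subtracted it had a log2 ratio of 1.00 and NOTCH3 one of 1.06. NOTCH1 (ENSG00000148400.13), on the minus strand of chromosome 9 of GRCh38 from 136494433 to 136546048 with 34 exons in its main transcript, had 18.0 FPKM in AS STRAP KO and 7.09 FPKM in AS WT. It was 2.54-fold higher, a log2 ratio of 1.34 (95% counting interval 1.26 to 1.42) from an estimated 4506 and 1746 reads. NOTCH1 stood above NOTCH2 in AS STRAP KO and below it in AS WT.

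NOTCH3 (ENSG00000074181.9), the receptor best known from vascular smooth muscle, lies on the minus strand of chromosome 19 from 15159038 to 15200995. It had 10.2 FPKM in AS STRAP KO and 4.57 FPKM in AS WT, 2.24-fold higher with a log2 ratio of 1.16 (interval 1.06 to 1.27). It was the lowest of the 3 receptors in both libraries.

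NOTCH2 (ENSG00000134250.21), on the minus strand of chromosome 1 from 119911553 to 120100779, had 16.2 FPKM in AS STRAP KO and 13.0 FPKM in AS WT. The log2 ratio was 0.32 (interval 0.26 to 0.38), smaller than that of the other receptors. Human genomes carry partial copies of NOTCH2, the NOTCH2NL genes, and reads from their shared exons can be divided among them, so the NOTCH2 level is uncertain to that extent. Of these copies, the row of NOTCH2NLC, shared with NBPF19 and another gene, had 2.71 FPKM in AS STRAP KO and 3.81 FPKM in AS WT. The rows of NOTCH2NLA and NOTCH2NLB, each shared with an NBPF gene, were under 0.11 FPKM in both libraries.

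Summed over the 3 receptors, AS STRAP KO had 44.5 FPKM and AS WT 24.6 FPKM, a 1.81-fold difference. The make-up of the sum differed as well. NOTCH1 gave 40.5% of the receptor FPKM in AS STRAP KO and 28.8% in AS WT. NOTCH2 gave 36.5% in AS STRAP KO and 52.6% in AS WT, and NOTCH3 23.0% in AS STRAP KO and 18.6% in AS WT. By these values the leading receptor transcript was NOTCH1 in AS STRAP KO, at 1.11 times the level of NOTCH2. In AS WT it was NOTCH2, at 1.83 times the level of NOTCH1. The lead in AS STRAP KO was narrow and is uncertain, since reads divided between NOTCH2 and its copies could change it.

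**Figure D2:**
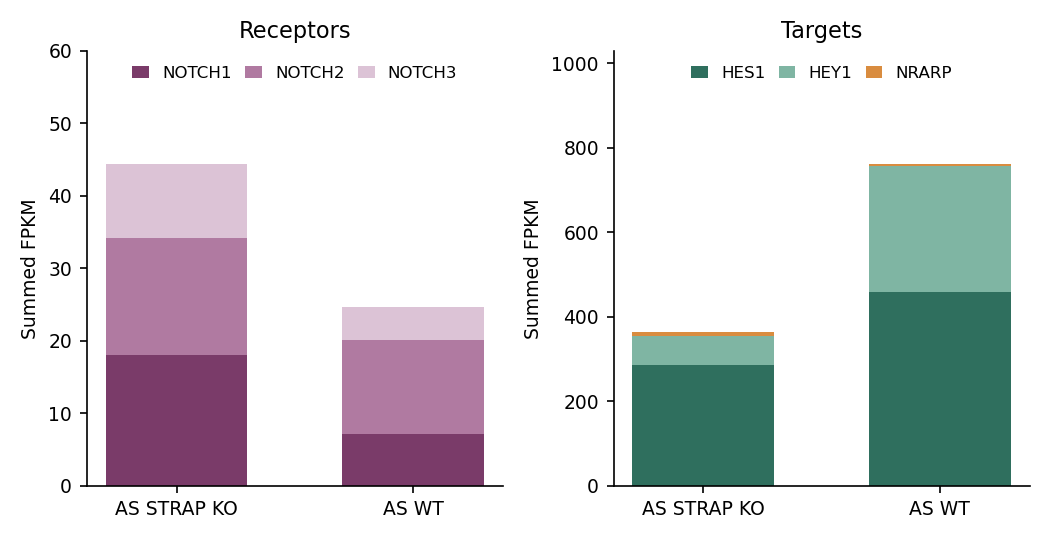
Stacked FPKM of the receptor genes (left) and of the target genes (right), with AS STRAP KO on the left of each panel and AS WT on the right, 1 library each. The receptor bar is taller in AS STRAP KO, at 44.5 FPKM against 24.6 FPKM in AS WT, and the target bar is shorter in AS STRAP KO, at 364 FPKM against 762 FPKM in AS WT, with most of the difference in HEY1 and HES1 (HEY2 is too low to draw).

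Of the ligand genes, JAG1 and the row that holds JAG2 had values above 1 FPKM in both libraries. JAG1 (ENSG00000101384.12), on the minus strand of chromosome 20 from 10637684 to 10673999, had 7.36 FPKM in AS STRAP KO and 3.18 FPKM in AS WT. The log2 ratio was 1.21 (interval 1.05 to 1.37), 2.31-fold higher.

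JAG2, on the minus strand of chromosome 14 from 105140982 to 105168824, shares its row with the overlapping gene NUDT14, an enzyme of sugar nucleotide breakdown, and the row cannot be divided between them. This row had 45.6 FPKM in AS STRAP KO and 33.5 FPKM in AS WT, a log2 ratio of 0.45. It stood at 6.20 times the level of JAG1 in AS STRAP KO and 10.5 times in AS WT, an upper limit for JAG2 itself.

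DLL1, a Delta ligand on chromosome 6 from 170282206 to 170306565, had 2 rows, both listed at 0 in both libraries. Among protein-coding symbols with more than 1 row, 69.6% of 1174 were listed at 0 in every row of both libraries, against 15.7% of the 17763 symbols with 1 row. RPS18, a ribosomal protein gene that every cell uses, was also listed at 0 in all of its 7 rows. The 0 of DLL1 was for that reason not read as absence, and no fold is given.

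The target genes differed in direction. HEY1 (ENSG00000164683.19), a repressor of the Hairy family, on the minus strand of chromosome 8 from 79762371 to 79767857, had 70.4 FPKM in AS STRAP KO and 297 FPKM in AS WT. HEY1 was lower by 4.22-fold, with a log2 ratio of -2.08 (interval -2.13 to -2.03), from an estimated 3756 and 15599 reads. This was the widest difference among the 8 expressed genes. In AS STRAP KO, HEY1 stood above 86.0% of the rows that passed the filter, and in AS WT above 97.2%.

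HES1 (ENSG00000114315.4), which represses proneural genes, lies on the plus strand of chromosome 3 from 194136148 to 194138732 in 4 exons. It had 285 FPKM in AS STRAP KO and 458 FPKM in AS WT, 1.61-fold lower with a log2 ratio of -0.69 (interval -0.72 to -0.65). HES1 did not reach 2-fold, and it was the most abundant of the 10 transcripts in both libraries, above 97.5% of rows in AS STRAP KO and 98.3% in AS WT. The ratio of HES1 to HEY1 was 4.05 in AS STRAP KO and 1.54 in AS WT.

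NRARP (ENSG00000198435.4), a small ankyrin-repeat protein that is induced by Notch and holds it back, lies in 1 exon on the minus strand of chromosome 9 from 137299631 to 137302271. It had 9.13 FPKM in AS STRAP KO and 6.91 FPKM in AS WT. The log2 ratio was 0.40 (interval 0.22 to 0.58), in the direction of the receptors and opposite to HES1 and HEY1. HEY2, a further Hairy-family repressor known from heart and vessel development, had 0.0166 FPKM in AS STRAP KO, an estimated 1.07 reads, and was listed at 0 in AS WT. It is on the plus strand of chromosome 6 from 125747664 to 125761269, and its values are too low for a comparison.

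Summed over HES1, HEY1, HEY2 and NRARP, AS STRAP KO had 364 FPKM and AS WT 762 FPKM, a log2 ratio of -1.06. HES1 made up 78.2% of the sum in AS STRAP KO and 60.1% in AS WT, and HEY1 19.3% in AS STRAP KO and 39.0% in AS WT. The receptor sum and the target sum thus differed in opposite directions, with log2 ratios of 0.85 and -1.06. FPKM measures transcripts, and neither receptor cleavage nor the protein level was measured in these data.

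**Figure D3:**
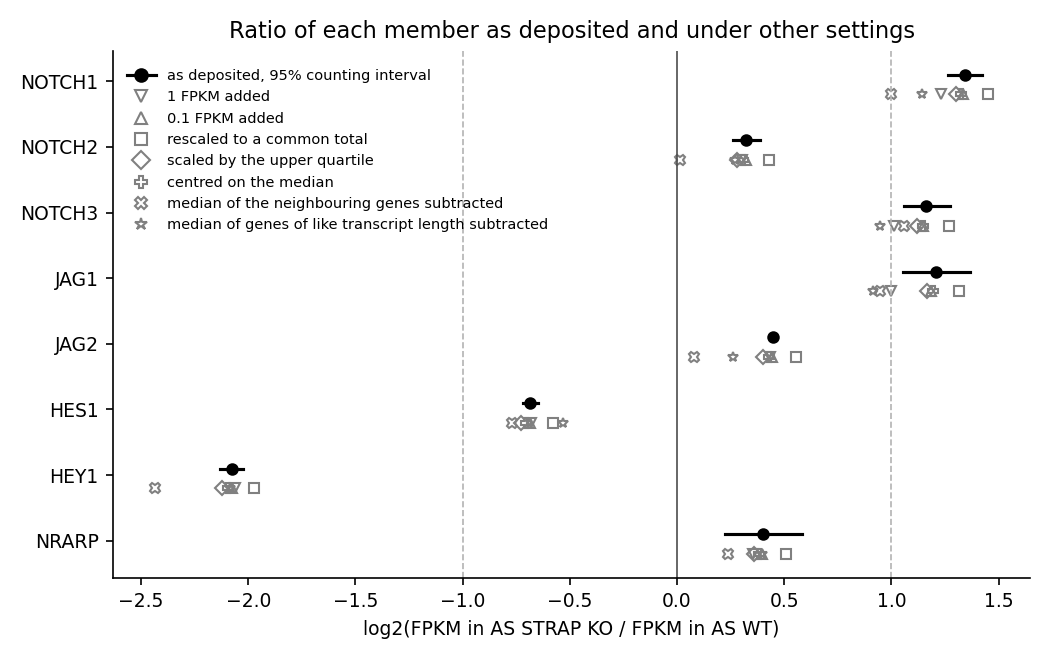
Log2 ratio, AS STRAP KO over AS WT, of the 8 expressed genes, with the value as deposited (black, with the 95% counting interval where the row holds 1 symbol) and the values under 7 other settings (grey), and dashed lines at 2-fold. Every gene kept its side of 0 under each setting drawn, while NOTCH1, NOTCH3 and JAG1 lay just under 2-fold in some of them.

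The surroundings of the genes were compared, since ratios can be shared along a chromosome. For each gene the 10 nearest expressed protein-coding genes on each side were taken where that many lay on the chromosome. The 20 neighbours of NOTCH1 had a median log2 ratio of 0.35, with 17 above 0, and 1.00 was left for NOTCH1 after subtracting it. The neighbours of NOTCH2 and of JAG2 had medians of 0.31 and 0.37, which left 0.013 for NOTCH2 and 0.077 for the JAG2 row. NOTCH2 and the JAG2 row were therefore close to the median of the genes around them. Those genes varied widely, from -1.65 to 1.67 around NOTCH2 and from -2.07 to 2.60 around JAG2. For NOTCH3 and JAG1, the values left were 1.06 and 0.95, with neighbour medians of 0.10 and 0.26.

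HES1 and HEY1 lay below the median of their surroundings. Each still had a neighbour with a lower log2 ratio than its own, at -0.86 near HES1 and -2.20 near HEY1. The neighbours of HEY1 had a median of 0.36, with 14 of 20 above 0. HEY1 lay 2.43 below that median on the log2 scale (difference -2.43). The neighbours of HES1 had a median of 0.083 and left -0.77. NRARP, with 18 neighbours, kept 0.24. The part of shared chromosome shifts in these values was not tested.

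Transcript length moved with the ratio across genes. Among 9955 positioned protein-coding genes, the median log2 ratio was -0.20 in the tenth with the shortest transcripts (276 to 1352 bases) and 0.15 in the tenth with the longest (7711 to 34626 bases), where the 3 receptors lie. It was highest, at 0.22, in the bin just below the longest (5884 to 7707 bases), which holds JAG1. The receptor and Jagged genes have long main transcripts, of 5773 bases for JAG2 to 11425 for NOTCH2, and the targets short ones, of 1575 for HES1 to 2641 for NRARP, so length and role cannot be fully told apart within the group. After subtracting the median of the 200 genes nearest in length, a step chosen after seeing the data, the log2 ratios were 1.14 for NOTCH1, 0.95 for NOTCH3, 0.91 for JAG1, -0.53 for HES1 and -2.08 for HEY1. NRARP and HEY1, whose lengths are close, kept opposite signs, at 0.40 and -2.08.

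**Figure D4:**
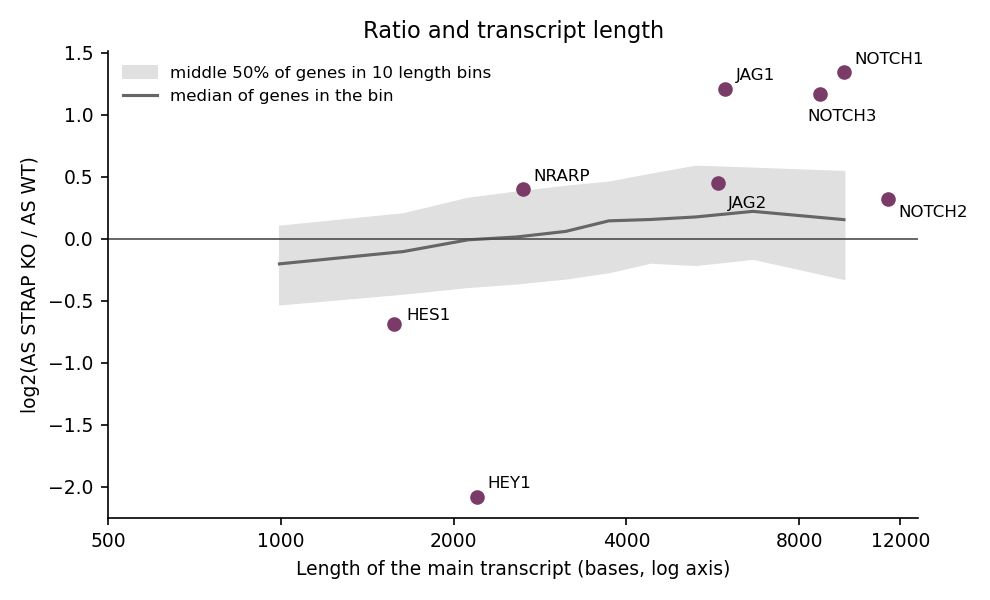
Log2 ratio, AS STRAP KO over AS WT, (vertical axis) against the length of the main transcript (bases, log axis) for the 8 expressed genes (points), with the median and middle 50% of 9955 protein-coding genes in 10 length bins (line and grey band). NOTCH1, NOTCH3 and JAG1 lie above the band, and the target NRARP lies just above its upper edge. HES1 and HEY1 lie below the band, JAG2 lies within it, and NOTCH2 lies beyond the last bin centre.

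The rest of the pathway was described with 8 lists of 111 other genes, written by role. Of these, 87 had at least 1 FPKM in a library, 13 were higher by 2-fold or more in AS STRAP KO and 8 were lower by as much, with a median log2 ratio of 0.20. These were 14.9% and 9.20% of the 87, beside 8.31% and 10.6% of all rows, and the share of lower genes was near that of all rows. The higher genes include EGFL7 and NEURL1B, which passed the filter in AS STRAP KO alone. The lower ones include the NEUROD1 row, which passed it in AS WT alone. Of the 13 higher and 8 lower genes, 5 and 3 came from a list of reported Notch-responsive genes that other pathways also control. The shorter lists rest on few genes each and are given as counts only, to be read beside the same shares of all rows. Of the other receptors and ligands, 3 of 11 passed the filter and each of the 3 was higher by 2-fold or more. Genes under the filter went both ways. CNTN1 had 0.258 FPKM in AS STRAP KO and 0.812 FPKM in AS WT, while MFAP2 had 0.676 and 0.0990 FPKM in AS STRAP KO and AS WT. EGFL7, a secreted protein that can bind Notch receptors and a gene close to NOTCH1 on chromosome 9, had 7.83 FPKM in AS STRAP KO and 0.554 FPKM in AS WT. It passed the filter in AS STRAP KO alone, so its place among the higher genes follows in part from the filter. DLK2, a Delta-like protein, had 8.16 FPKM in AS STRAP KO and 2.60 FPKM in AS WT, and DLL3, a Delta ligand that acts inside the cell, had 2.55 and 1.18 FPKM in AS STRAP KO and AS WT. These ratios rest on fewer reads than those of the receptors, with an estimated 22.7 reads for EGFL7 in AS WT and a log2 interval of 3.19 to 4.48. NOTCH4 was listed at 0 in both libraries, but it has 7 rows, and like that of DLL1 its 0 was not read as absence.

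The machinery that modifies and cuts the receptors differed little. Of 11 expressed genes of receptor glycosylation and ligand endocytosis, 1 was higher by 2-fold or more and none was lower by as much (median log2 ratio 0.29). The one was NEURL1B, a ubiquitin ligase that acts on ligands, at 1.21 FPKM in AS STRAP KO and 0.540 FPKM in AS WT. It too passed the filter in AS STRAP KO alone. MIB1, the main ligand-activating ubiquitin ligase, had 4.97 FPKM in AS STRAP KO and 3.62 FPKM in AS WT, and LFNG, a sugar transferase acting on Notch, 6.02 and 4.57 FPKM in AS STRAP KO and AS WT. The widest ratio below 0 on this list was that of EPN1, an epsin of endocytosis (log2 ratio -0.47).

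None of the 9 receptor cleavage genes was beyond 2-fold in either direction (median 0.17). PSEN2, which encodes a catalytic subunit of γ-secretase, came closest, at 27.4 FPKM in AS STRAP KO and 14.4 FPKM in AS WT (log2 ratio 0.93, interval 0.80 to 1.06). NCSTN, another subunit, and the protease gene ADAM10 had log2 ratios of 0.12 and 0.20. APH1B and the row of PSENEN, which it shares with LIN37, were lower, both with log2 ratios of -0.42.

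In the nuclear complex and its corepressors, 2 of 23 expressed genes were higher by 2-fold or more and 2 were lower by as much (median log2 ratio -0.03). RBPJ, the DNA-binding core of the pathway, had 18.6 FPKM in AS STRAP KO and 14.8 FPKM in AS WT, a log2 ratio of 0.32. MAML1, a coactivator, was listed at 0.534 FPKM in AS STRAP KO and 0.510 FPKM in AS WT, a level that is uncertain since the symbol has 2 rows. The acetyltransferase genes CREBBP and KAT2B were the 2 higher, at 26.1 and 5.34 FPKM in AS STRAP KO and 9.61 and 2.01 FPKM in AS WT.

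The 2 lower belonged to the TLE family, corepressors that HES and HEY proteins recruit. TLE3 had 6.59 FPKM in AS STRAP KO and 18.5 FPKM in AS WT (log2 ratio -1.49, interval -1.59 to -1.38), and TLE1 had 2.56 and 5.14 FPKM in AS STRAP KO and AS WT (log2 ratio -1.01, interval -1.22 to -0.79). The TLE family was not uniform. TLE2 had a log2 ratio of -0.84, while TLE4 had one of 0.95 and the highest FPKM of the 4 in AS STRAP KO.

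Receptor trafficking and turnover had 13 expressed genes, of which 2 were higher by 2-fold or more and none was lower by as much (median log2 ratio 0.059). DTX4, a Deltex ubiquitin ligase of receptor endocytosis, had 6.77 FPKM in AS STRAP KO and 1.98 FPKM in AS WT. NUMB, an inhibitor of Notch that is divided unequally in neural precursors of flies and mice, had 41.2 FPKM in AS STRAP KO and 16.9 FPKM in AS WT (log2 ratio 1.28, interval 1.20 to 1.37). DTX2, a symbol with 2 rows, and FBXW7, a ubiquitin ligase that removes the intracellular part of Notch, had log2 ratios of 0.85 and 0.60.

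Among 6 expressed genes of the wider HES and HEY family, 3 had a higher and 3 a lower value in AS STRAP KO, with a median log2 ratio of 0.047. By 2-fold or more, 1 was lower and none was higher, beside 10.6% and 8.31% of all rows. HES7, a gene of the segmentation clock, was the lower one, at 1.86 FPKM in AS STRAP KO and 6.34 FPKM in AS WT. HES4, whose promoter is printed above, had 41.3 FPKM in AS STRAP KO and 31.3 FPKM in AS WT, a log2 ratio of 0.40 with an interval of 0.24 to 0.56. HEYL, which passed the filter in AS STRAP KO alone, had 1.54 FPKM there and 0.981 FPKM in AS WT. BHLHE40 had a log2 ratio of -0.53. The values of HES4 and HEYL were thus higher in AS STRAP KO, as that of NRARP was, and those of HES7 and BHLHE40 were lower, as those of HES1 and HEY1 were.

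Of the proneural factors, which HES proteins are known to repress, 6 of 13 passed the filter, 2 were lower by 2-fold or more and none was higher by as much (median log2 ratio -0.07). The row of NEUROD1, shared with CERKL, had 0.409 FPKM in AS STRAP KO and 1.58 FPKM in AS WT. It passed the filter in AS WT alone. The broadly expressed partners of such factors, TCF3 and TCF4, had log2 ratios of 0.77 and 0.36, and ATOH8 one of -0.43.

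**Figure D5:**
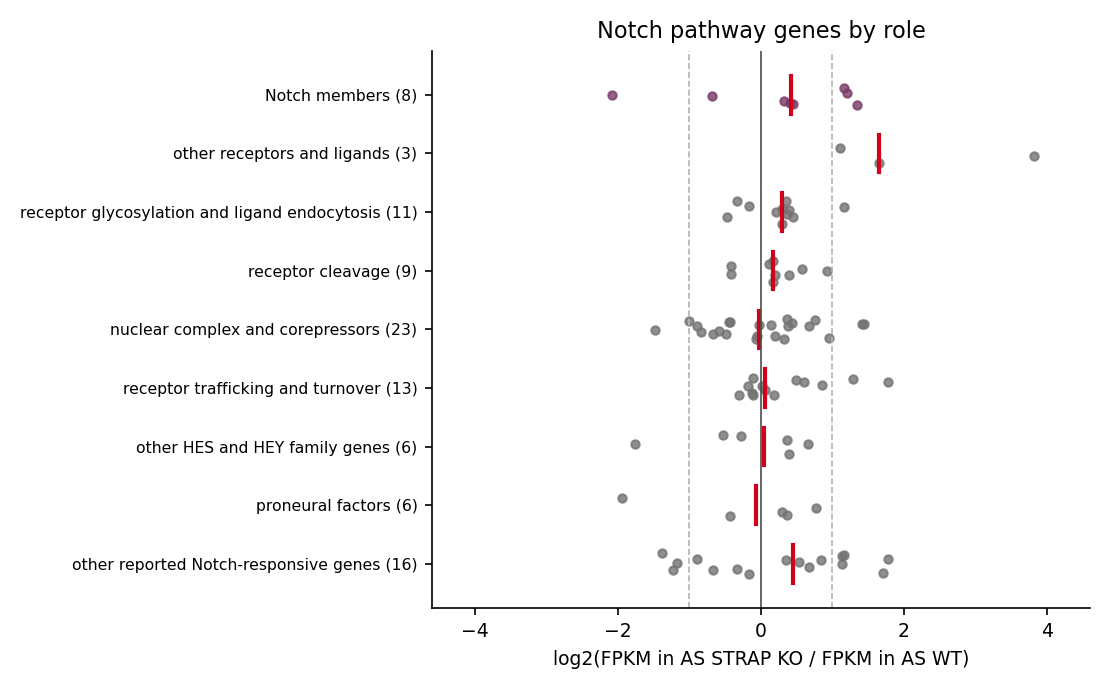
Log2 ratio, AS STRAP KO over AS WT, of genes with at least 1 FPKM in a library, by role, with AS STRAP KO higher to the right, 1 point per gene, red bars at list medians, the number of genes in parentheses, and dashed lines at 2-fold. Genes listed at 0 in 1 library have no ratio and no point, but are in the numbers and medians. The 10 named Notch genes (top, 8 expressed) spread from -2.08 to 1.34, and the receptor cleavage genes all lie within 2-fold. Of the 11 other receptors and ligands, the 3 drawn lie above 2-fold, and EGFL7 among them reached 1 FPKM in AS STRAP KO alone. The rest of that list is under 1 FPKM and not drawn.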

How the data were processed

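The edited genotype, AS STRAP KO, and its unedited counterpart, AS WT, each gave 1 RNA-seq library. Polyadenylated RNA went into directional libraries and was read from 1 end over 75 bases, and the authors aligned the reads with STAR to GRCh38 with GENCODE 32 and estimated levels with Cufflinks and Cuffdiff. The submitters' processing notes give STAR 2.7.6 and Cufflinks 2.2.1, and the methods give another STAR release. Values were deposited in FPKM, scaled by the authors to transcript length and library size. Overlapping genes share rows (1734 rows). The methods give a minimum number of replicates for experiments in general, but not how replicates entered the 1 column of each genotype.

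From these, plain log2 ratios of AS STRAP KO to AS WT were computed with no pseudocount. Counts cover the 13527 rows that reached 1 FPKM in either library, and at least 2-fold means a ratio of 2 or more, or 0.5 or less. A 0 in 1 library counted as beyond 2-fold. Depth came from single-transcript genes of at least 1500 bases, shortened by a fragment length of 200 bases. Of the 320 values of AS STRAP KO and 368 of AS WT between 1 and 5 reads, 93.8% and 94.8% lay within 0.1 of a whole read. Estimated reads assume the main (Ensembl canonical) transcript of GENCODE 44. Of 12551 expressed rows with 1 symbol, 87.8% matched GENCODE 44. Promoters are RefSeq windows on GRCh38.p14.

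The members and lists were chosen with earlier results of these data known. Genes named were all 10 members, STRAP, copies of NOTCH2, genes the pathway needs (RBPJ, MAML1, ADAM10, NCSTN) and up to 4 genes per list with the largest absolute ratio, plus those at 0 in 1 library. Some genes this rule names are not reported here. NOTCH4, CNTN1, MFAP2, HES5, HES6, TLE2, TLE4, RPS18 and the marker genes were named outside this rule, after their values were seen. Alternatives were pseudocounts, scalings, filters, summed rows, chromosome neighbours and, added later, transcript length. The counting and depth steps were tested on simulated data. Work was done in Python 3.11.15 with SciPy 1.17.1, pandas 2.3.3 and numpy 2.4.6, and figures were drawn with matplotlib 3.10.9.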

Additional observations from a re-analysis of the deposited data

How the results depend on the processing

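The sign of each of the 8 expressed genes was the same on the deposited scale and under the 8 alternatives run for it, which were pseudocounts of 0.1 and 1 FPKM, 3 scalings, summed rows, neighbours subtracted and genes of like length subtracted. The count of 3 genes at least 2-fold higher was 2 with 1 FPKM added, where JAG1 fell just short, and 1 with the neighbours or with genes of like length subtracted, which left NOTCH3 in the first case and NOTCH1 in the second. HEY1 was at least 2-fold lower under each of these. The subtractions in these counts and in the median, and all values by like length, were chosen after seeing the data. The median log2 ratio of the 8 was 0.42 as deposited, 0.53 rescaled to a common total, 0.16 with the neighbours subtracted and 0.33 with genes of like length subtracted. Rescaling to a common total shifted every log2 ratio by 0.11, and the other scalings by less than 0.05. Over all rows, 1434 were at least 2-fold lower and 1124 higher as deposited, against 866 and 719 with 1 FPKM added, 680 and 577 with at least 1 FPKM in both libraries, 2963 and 1999 with any value above 0 in both, and 642 and 564 with at least 5 FPKM in a library. Rescaled to a common total, 1501 of 14473 rows were lower and 1597 higher, so the balance of lower over higher rows turned round. No paired analysis was possible because each genotype had 1 library.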

Other observations

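Genes reported elsewhere as Notch-responsive in some cell types, but also controlled by other pathways, were split. Of 16 expressed genes of a list of 17, 5 were higher by 2-fold or more in AS STRAP KO and 3 were lower by as much, beside 8.31% and 10.6% of all rows, with a median log2 ratio of 0.44. EPHB4, an ephrin receptor of veins, had 4.25 FPKM in AS STRAP KO and 1.25 FPKM in AS WT, and CDKN1A, the cell cycle inhibitor p21, had 40.1 FPKM in AS STRAP KO and 12.2 FPKM in AS WT. SNAI2, a repressor of epithelial genes, had 8.41 FPKM in AS STRAP KO and 22.0 FPKM in AS WT, and MYC had 17.6 FPKM in AS STRAP KO and 41.1 FPKM in AS WT. The list gave no single direction, and with 1 library per genotype none of these differences had a replicate check.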
